A study of Mus musculus with 30 samples.

Results

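The stress genes described here are 41 mouse genes of the unfolded protein response and the amino acid response. They were picked by their known roles, with earlier results of these data known. Of them, 40 were measured among the 18194 genes of the series that had a probe set carrying a single gene symbol. Pycr1, an enzyme of proline synthesis, was not analysed here. Where a gene had several such probe sets (30 of the 40 genes), the one with the highest mean intensity over all 30 arrays stood for it. By role they fall into 11 Atf4 arm regulators, 7 amino acid enzymes, 13 ER chaperones and 9 genes of ER sensing and ER-associated degradation (ERAD). The first 2 groups together are called the amino acid arm (18 genes).

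The cells were C2C12, a mouse myoblast line that forms myotubes when serum is lowered and turns towards bone-forming cells when BMP2 (bone morphogenetic protein 2) is added. C2C12-pMirn378 cells carried the lentiviral construct PMIRH378PA-1, which holds the miR-378 precursor, and C2C12-pMirn0 cells carried the parent vector pCDH-CMV-MCS-EF1-copGFP. Both were stably transduced populations sorted on copGFP, and each line is 1 such population, so the construct cannot be told apart from the history of its population. Each line was profiled before treatment (d0) and on d3 and d6 of culture in DMEM with newborn calf serum either without BMP2 (untreated) or with 300 ng/ml BMP2. This gives 5 groups of C2C12-pMirn378 and 5 groups of C2C12-pMirn0, each with 3 arrays from triplicate experiments with the same line. The p-values therefore rest on the spread between such experiments within groups, pooled over all 10 groups.

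The endoplasmic reticulum (ER) folds secreted and membrane proteins, and 3 sensors in its membrane, Atf6, Ern1 (IRE1) and Eif2ak3 (PERK), respond when unfolded protein accumulates. Atf6 and the Xbp1 mRNA spliced by Ern1 drive genes for chaperones and ERAD. Eif2ak3 phosphorylates the translation factor eIF2α, which lets the Atf4 mRNA be translated, and the kinase Eif2ak4 (GCN2) does the same when amino acids are short. Atf4 then drives genes for amino acid synthesis and uptake. One set of genes therefore answers to both kinds of stress, while the ER chaperones answer to the ER sensors.

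Sequence features known from both arms were looked up in the promoters. RefSeq windows (GRCm38.p6, 250 bases before to 50 bases after the start of each transcript) were found for 37 of the 40 genes, with Atf6, Hyou1 and Manf unmatched. The letters TGATGNAA, read on both strands, are those of the C/EBP-ATF response element (CARE) to which Atf4 binds with a C/EBP partner, and 3.97% of 32851 windows held them. They were found in 4 of 11 regulators (Chac1, Nupr1, Trib3 and Vldlr), in 1 of 7 enzymes (Asns), in 0 of 11 chaperones and in 1 of 8 sensor and ERAD genes (Herpud1). The stretches below, in the direction of transcription with 20 bases on either side, show the CARE letters of the amino acid arm in capitals, either as written above or as their reverse complement.
Chac1 (chr2:119351029-119351076, plus strand): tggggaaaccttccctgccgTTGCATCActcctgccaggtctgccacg
Nupr1 (chr7:126625553-126625600, minus strand): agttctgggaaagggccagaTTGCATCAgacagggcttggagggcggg
Vldlr (chr19:27216800-27216847, plus strand): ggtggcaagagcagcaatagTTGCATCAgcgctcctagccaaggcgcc
Asns (chr6:7693205-7693252, minus strand): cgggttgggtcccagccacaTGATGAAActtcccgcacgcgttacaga
In Trib3 the match TTACATCA began 14 bases after the transcript start.

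The ER stress element (ERSE), CCAAT and CCACG separated by 9 bases, was found on either strand in 0.119% of all windows and in 7 of 11 chaperones (Calr, Canx, Creld2, Dnajc3, Hsp90b1, Hspa5 and Pdia6), in Syvn1 and in 0 of the 18 genes of the amino acid arm. These 3 chaperone stretches, with the whole element in capitals, show the fixed ends around a spacer that varies.
Hspa5 (chr2:34772005-34772063, plus strand): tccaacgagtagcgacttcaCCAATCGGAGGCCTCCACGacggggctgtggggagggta
Pdia6 (chr12:17266471-17266529, plus strand): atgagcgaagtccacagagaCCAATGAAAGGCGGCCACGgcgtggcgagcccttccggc
Creld2 (chr15:88819500-88819558, plus strand): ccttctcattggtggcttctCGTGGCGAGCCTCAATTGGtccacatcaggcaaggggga
Herpud1, which builds the ERAD machinery, was the only one of the 37 genes whose window held both a CARE and an ER element, here ERSE-II (ATTGG and CCACG with 1 base between, in 0.0365% of all windows).
Herpud1 (chr8:94386297-94386407, plus strand): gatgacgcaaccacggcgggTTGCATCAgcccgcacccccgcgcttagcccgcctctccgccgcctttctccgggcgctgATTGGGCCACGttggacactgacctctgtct
TGACGTGG, the letters of the unfolded protein response element, was in 0.676% of all windows and in 0 of the 37 genes. A match describes letters in this window and is no evidence of binding.

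Intensities are on the linear scale of the deposited values, whose median over all probe sets and arrays was 76.5, and 39 of the 40 genes lay above it in every group. The exception was Vldlr at d0. A gene is called higher or lower where limma's moderated test, fitted over all 45101 probe sets with p-values adjusted over them by Benjamini-Hochberg, gave an adjusted p under 0.005 and the log2 ratio passed 0.6 in size. For differentiation the adjusted p was that of d6 over d0 and the ratio was the mean of those at d3 and d6. The 10 myoblast and muscle markers were all at or above the overall median in every group, and their summed level in untreated cells at d3 was 129590 to 132250 in C2C12-pMirn378 and 116520 to 133950 in C2C12-pMirn0, against 25341 to 27558 in C2C12-pMirn378 and 26519 to 27521 in C2C12-pMirn0 at d0. With BMP2 at d3, 6 bone markers summed to 14411 to 15318 in C2C12-pMirn378 and 8368 to 8618 in C2C12-pMirn0, against 692 to 828 over the 3 C2C12-pMirn0 arrays at d0. Of these 6, 5 were then at or above the overall median in C2C12-pMirn378 and 4 in C2C12-pMirn0. Ibsp was under it in both lines (35.7 in C2C12-pMirn378 and 35.1 in C2C12-pMirn0) and Dlx5 in C2C12-pMirn0 (48.8), so the sums rest on Col1a1, Alpl, Vdr and Sp7. In such bulk samples, fewer cells of a type and less RNA per cell cannot be told apart.

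The regulators moved far more over the 10 groups than the chaperones did. The ratio of a gene's highest to its lowest group mean had a median of 4.68 over the 11 regulators (1.62 for Atf4 to 32.0 for Trib3, with no fold given for Vldlr, whose d0 levels were under the overall median), 2.42 over the 7 enzymes (2.21 to 5.71), 1.53 over the 13 chaperones (1.29 for Pdia3 to 3.10 for Sdf2l1) and 2.94 over the 9 sensor and ERAD genes (1.19 for Syvn1 to 7.07 for Edem1). All 11 regulators had their highest mean in a d6 BMP2 group, 5 of them in C2C12-pMirn378 and 6 in C2C12-pMirn0, and 10 had their lowest at d0. For Ddit4 the lowest group was untreated C2C12-pMirn378 at d6. Of the 13 chaperones, 9 had their highest mean at d0. The 7 enzymes were split, with 3 highest in untreated C2C12-pMirn0 at d3 (Psat1, Phgdh and Mthfd2), 3 highest in C2C12-pMirn378 at d6 with BMP2 (Asns, Psph and Aldh18a1) and Shmt2 highest in C2C12-pMirn378 at d0. The heat map of the 40 genes shows these blocks.

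**Figure D1:**
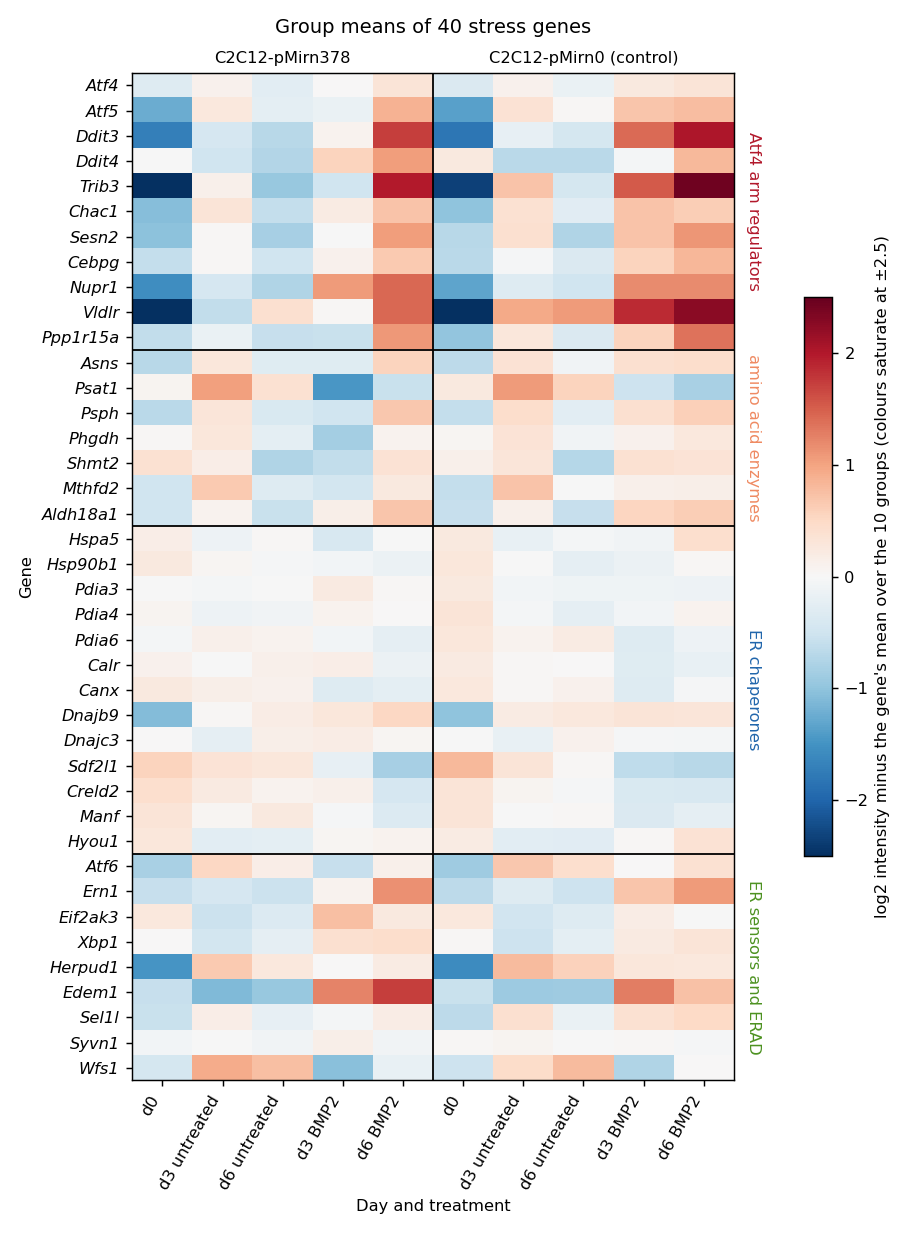
Heat map of the 40 stress genes (rows, by gene group) in the 10 groups of line, day and BMP2 (columns, C2C12-pMirn378 on the left), coloured by the mean log2 intensity of 3 arrays minus the gene's mean over the 10 groups, with colours saturating at ±2.5. The regulators change from low at d0 to high at d6 with BMP2 in both lines, while most chaperones stay close to their own mean.

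Put on 1 scale, as the mean over genes of the log2 intensity minus each gene's mean over the 30 arrays, the amino acid arm in C2C12-pMirn378 stood at −0.92 at d0. Without BMP2 it was at 0.09 on d3 and −0.44 on d6, and with BMP2 at −0.18 on d3 and 0.80 on d6. In C2C12-pMirn0 the values were −0.87, 0.30 and −0.23 without BMP2, and 0.60 and 0.85 with it. The SD over 3 arrays was between 0.02 and 0.13 in all 10 groups. The arrays of the lines overlapped at d0 and at d6 with BMP2. They stood apart most at d3 with BMP2, and by less, also without overlap, at d3 untreated (0.03 to 0.14 in C2C12-pMirn378 and 0.28 to 0.33 in C2C12-pMirn0). At d6 untreated they were barely apart (−0.57 to −0.32 in C2C12-pMirn378 and −0.30 to −0.12 in C2C12-pMirn0). The arm's values include Vldlr, which was dim at d0 and lower in C2C12-pMirn378 after d0. They were not computed without it, so the separation of the untreated arrays may rest on that gene. The chaperones ranged only between −0.19 and 0.20 over the same groups. The amino acid arm minus the chaperones was −0.18 ± 0.15 in C2C12-pMirn378 and 0.79 ± 0.03 in C2C12-pMirn0 at d3 with BMP2, and 0.93 ± 0.07 in C2C12-pMirn378 and 0.90 ± 0.03 in C2C12-pMirn0 at d6 with BMP2 (SD, n = 3).

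**Figure D2:**
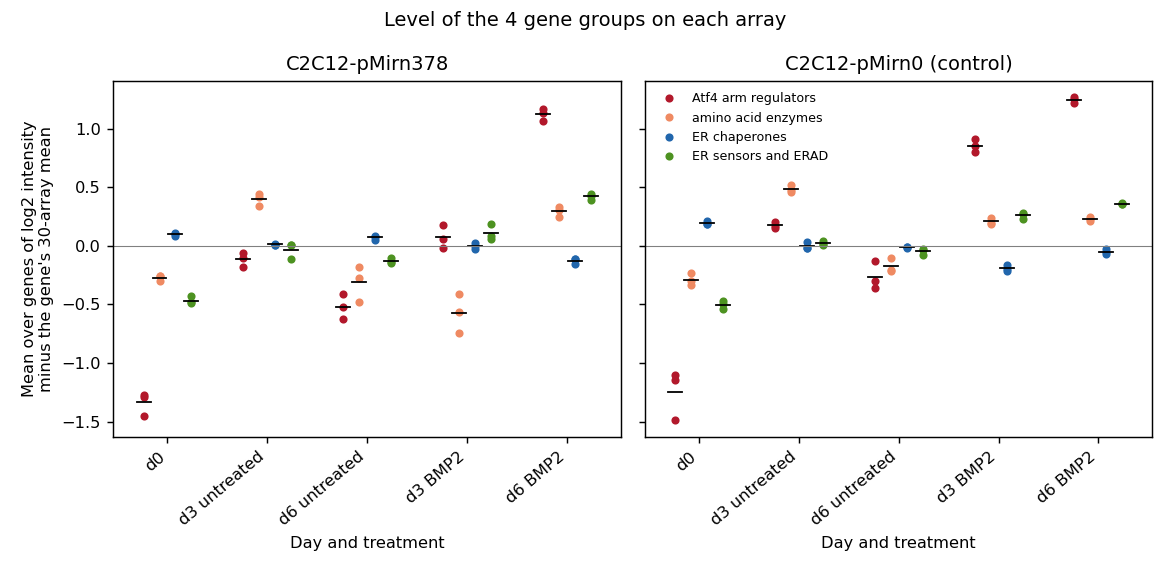
Level of the 4 gene groups in each array, as the mean over the group's genes of the log2 intensity minus the gene's mean over 30 arrays (vertical axis), in the 10 groups of line, day and BMP2. Points are arrays and bars are means of 3; the amino acid enzymes lie lowest in C2C12-pMirn378 at d3 with BMP2 (mean −0.58) and the chaperones stay within about ±0.2.

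Differentiation without BMP2 was accompanied by a rise of part of the amino acid arm in both lines. In C2C12-pMirn378, 11 of the 40 genes were higher and 2 lower, where 12.8% and 11.0% of all genes were. In C2C12-pMirn0, 15 were higher and 3 lower, where 11.5% and 11.7% of all genes were. The amino acid arm supplied 7 of the higher genes in C2C12-pMirn378 and 10 in C2C12-pMirn0, the chaperones 1 in each line (Dnajb9). In each line 1 gene of the arm was called lower. Shmt2, the mitochondrial enzyme that turns serine into glycine, had 3725, 4167 and 4096 at d0, 3164, 3786 and 3403 at d3 and 1854, 1937 and 1650 at d6 in C2C12-pMirn378 (d6 over d0 −1.14, SE 0.08, adjusted p = 9.6e-11). Its brightest other probe set had a mean ratio over d3 and d6 of −0.51, short of the threshold. Ddit4 (REDD1), an inhibitor of the growth kinase complex mTORC1, had 2428, 2403 and 2379 at d0, 1226, 1226 and 1382 at d3 and 1323, 1328 and 1183 at d6 in C2C12-pMirn0 (d6 over d0 −0.91, SE 0.07, adjusted p = 6.2e-10), and in C2C12-pMirn378 its mean ratio of −0.60 (−0.71 at d6) was just under the threshold in size. The median log2 ratio in C2C12-pMirn378 was 0.64 over the arm's 18 genes, −0.17 over the 13 chaperones and 0.14 over all genes. In C2C12-pMirn0 the medians were 0.74, −0.32 and −0.04.

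Trib3, a pseudokinase induced by Atf4 that feeds back on it, had intensities of 195, 203 and 242 in C2C12-pMirn378 at d0, 1267, 1490 and 1366 at d3 and 659, 849 and 499 at d6. In C2C12-pMirn0 it had 255, 235 and 258 at d0, 2047, 2258 and 1914 at d3 and 1121, 803 and 900 at d6. No array at d3 or d6 overlapped the d0 arrays in either line, and d3 was the peak in both. The log2 ratio of d6 over d0 was 1.62 in C2C12-pMirn378 (SE 0.15, adjusted p = 4.5e-09) and 1.90 in C2C12-pMirn0 (SE 0.15, adjusted p = 3.0e-10).

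Ddit3 (CHOP), a transcription factor of prolonged stress, was at 710, 671 and 627 at d0, 1505, 1689 and 1703 at d3 and 1306, 1494 and 1270 at d6 in C2C12-pMirn378, with d6 over d0 at 1.02 on the log2 scale (SE 0.10, adjusted p = 4.0e-08). A second, dimmer probe set of Ddit3 was not called, with a mean ratio over d3 and d6 of 0.44 in C2C12-pMirn378 (adjusted p = 0.11) and 0.27 in C2C12-pMirn0 (adjusted p = 0.46), against 1.15 in C2C12-pMirn378 and 1.48 in C2C12-pMirn0 for the brighter one. Atf5, a factor related to Atf4, had a log2 ratio of d6 over d0 of 1.00 in C2C12-pMirn378 and 1.37 in C2C12-pMirn0. Nupr1, a small stress-induced chromatin protein, was higher by 0.81 in each line. Chac1, which degrades glutathione, was also called in both lines. Atf4 itself was not called, with d6 over d0 at 0.06 in C2C12-pMirn378 and 0.19 in C2C12-pMirn0, and d3 over d0 at 0.43 in C2C12-pMirn378 and 0.47 in C2C12-pMirn0. The amount of Atf4 protein is known to be set largely at translation, which these arrays do not measure.

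Vldlr, a lipoprotein receptor induced by Atf4 under ER stress, was dim at d0, with 25.2, 3.82 and 15.5 in C2C12-pMirn378 and 2.59, 46.4 and 43.1 in C2C12-pMirn0. These values lie under the overall median, so its large ratios against d0 rest on values without a firm level. At d3 without BMP2 it had reached 113, 117 and 124 in C2C12-pMirn378 and 340, 404 and 313 in C2C12-pMirn0. The scatter at d0 entered its SE in every comparison, which was 0.70 for those of 2 groups. The gap between the lines after d0 is given further below.

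Dnajb9 (ERdj4), a J-domain cochaperone of Hspa5, was the 1 chaperone of 13 that was called higher in untreated cells. It had 1327, 1203 and 1269 in C2C12-pMirn378 at d0, 2657, 2909 and 2653 at d3 and 2923, 3032 and 3240 at d6, which is 1.27 on the log2 scale for d6 over d0 (SE 0.08, adjusted p = 1.2e-11). Hspa5 (BiP), the main ER chaperone, had 13315, 13131 and 14222 at d0 and 13083, 13151 and 10992 at d6 in the same line, with overlapping arrays and a log2 ratio of −0.13 (adjusted p = 0.34). Hsp90b1 (GRP94), the disulfide isomerases Pdia3, Pdia4 and Pdia6, the lectin chaperones Calr and Canx, and Dnajc3, Creld2, Manf and Hyou1 were not called either, with log2 ratios of d6 over d0 between −0.53 and 0.14 in C2C12-pMirn378. Sdf2l1, a partner of Hspa5, fell in C2C12-pMirn0 (d6 over d0 −0.78, adjusted p = 8.7e-07).

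The ERAD and sensor genes went several ways. Herpud1 had 1288, 1113 and 1098 at d0, 4626, 5419 and 5099 at d3 and 3817, 4169 and 3589 at d6 in untreated C2C12-pMirn378, and 1205, 1011 and 1052, then 5300, 5509 and 6013, then 4969, 4905 and 4479 in untreated C2C12-pMirn0. Its log2 ratio of d6 over d0 was 1.73 in C2C12-pMirn378 (SE 0.09, adjusted p = 2.9e-13) and 2.14 in C2C12-pMirn0 (SE 0.09, adjusted p = 6.9e-15), with no overlap of arrays in either line. Atf6 (d6 over d0 0.96 in C2C12-pMirn378 and 1.32 in C2C12-pMirn0) and Wfs1, an ER membrane protein that restrains Atf6 (1.18 in C2C12-pMirn378 and 1.30 in C2C12-pMirn0), rose in both lines. Eif2ak3 fell in both (−0.60 in C2C12-pMirn378 and −0.58 in C2C12-pMirn0), as its mean ratio over d3 and d6 passed the threshold. In C2C12-pMirn0 that call of Eif2ak3 was lost without the second d0 array (−0.60, just under the threshold in size). Ern1 and Xbp1 were not called.

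From d3 to d6 without BMP2 the amino acid arm came down again. In C2C12-pMirn378, 0 of the 40 genes were higher at d6 than at d3 and 8 were lower, where 1.79% and 0.813% of all genes were, and all 8 belonged to the amino acid arm (Trib3, Chac1, Sesn2, Psat1, Psph, Shmt2, Mthfd2 and Aldh18a1). In C2C12-pMirn0 the counts were 0 and 8, where 1.54% and 0.984% of all genes were, again all in the arm, with Ppp1r15a in place of Psat1. The median log2 ratio in C2C12-pMirn378 was −0.56 over the arm and 0.03 over the chaperones, and in C2C12-pMirn0 it was −0.49 over the arm and −0.02 over the chaperones. From the arrays given above, Shmt2 fell in C2C12-pMirn378 (d6 over d3 −0.93, SE 0.08, adjusted p = 7.8e-08). In C2C12-pMirn378 the count was 5 without the third d6 array, since Psat1, Psph and Aldh18a1 then missed the size threshold (−0.57 to −0.60), and Aldh18a1 was also lost without the third d3 array. By unadjusted p under 0.05 with limma, 23 of the 40 genes differed between d6 and d3 in C2C12-pMirn378 and 25 in C2C12-pMirn0. The share of all genes at this unadjusted cut was not computed. Such counts, here and below, therefore cannot be set against all genes. Fitted on the compared groups alone, 0 genes were called in C2C12-pMirn378 (22 at unadjusted p under 0.05) and 1 in C2C12-pMirn0.

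With BMP2 more of the arm was called and the regulators were highest at d6. Over the whole course, 18 of the 40 genes were higher and 2 lower in C2C12-pMirn378, where 13.2% and 10.7% of all genes were, and 20 were higher and 4 lower in C2C12-pMirn0, where 11.6% and 10.2% of all genes were. Of the 11 regulators 10 were higher in each line, Atf4 being the exception in C2C12-pMirn378 and Ddit4 in C2C12-pMirn0. Dnajb9 was again the only chaperone called higher, and Sdf2l1 was called lower in both lines. In C2C12-pMirn0 the calls of lower chaperones also held Creld2 and Manf, both small ER proteins induced by ER stress. Sel1l, the adaptor of the ERAD ubiquitin ligase Syvn1, rose in both lines (d6 over d0 0.74 in C2C12-pMirn378 and 1.14 in C2C12-pMirn0), and Syvn1 itself was at −0.03 in C2C12-pMirn378 and −0.05 in C2C12-pMirn0 and was not called in any of the comparisons.

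Trib3 with BMP2 had 1005, 815 and 860 at d3 and 4774, 5461 and 4809 at d6 in C2C12-pMirn378, and 3710, 3558 and 3759 at d3 and 6841, 6419 and 7153 at d6 in C2C12-pMirn0. At d6 this was 4.56 above d0 on the log2 scale in C2C12-pMirn378 and 4.77 in C2C12-pMirn0 (SE 0.15 each, adjusted p at most 7.6e-17). At d3 every C2C12-pMirn378 array lay far under every C2C12-pMirn0 array. The lines were nearer each other at d6, where the C2C12-pMirn378 arrays (4774 to 5461) still lay under the C2C12-pMirn0 arrays (6419 to 7153).

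Ddit3 had 2728, 2304 and 2004 at d3 and 7353, 8079 and 6276 at d6 with BMP2 in C2C12-pMirn378, and 5924, 5756 and 5778 at d3 and 8812, 8754 and 9072 at d6 in C2C12-pMirn0. The d6 over d0 ratio was 3.43 in C2C12-pMirn378 and 3.84 in C2C12-pMirn0 on the log2 scale (SE 0.10 each). The dimmer probe set of Ddit3 was also called with BMP2, at smaller mean ratios over d3 and d6 (0.83 in C2C12-pMirn378 and 1.07 in C2C12-pMirn0, against 2.61 in C2C12-pMirn378 and 3.53 in C2C12-pMirn0 for the brighter one). Sesn2, which restrains mTORC1 when amino acids are short, was higher at d6 than at d0 by 2.06 in C2C12-pMirn378 and 1.81 in C2C12-pMirn0. Ppp1r15a (GADD34), which recruits the phosphatase that reverses eIF2α phosphorylation, was higher by 1.71 in C2C12-pMirn378 and 2.35 in C2C12-pMirn0, and Cebpg, a C/EBP partner of Atf4, by 1.26 in C2C12-pMirn378 and 1.51 in C2C12-pMirn0.

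**Figure D3:**
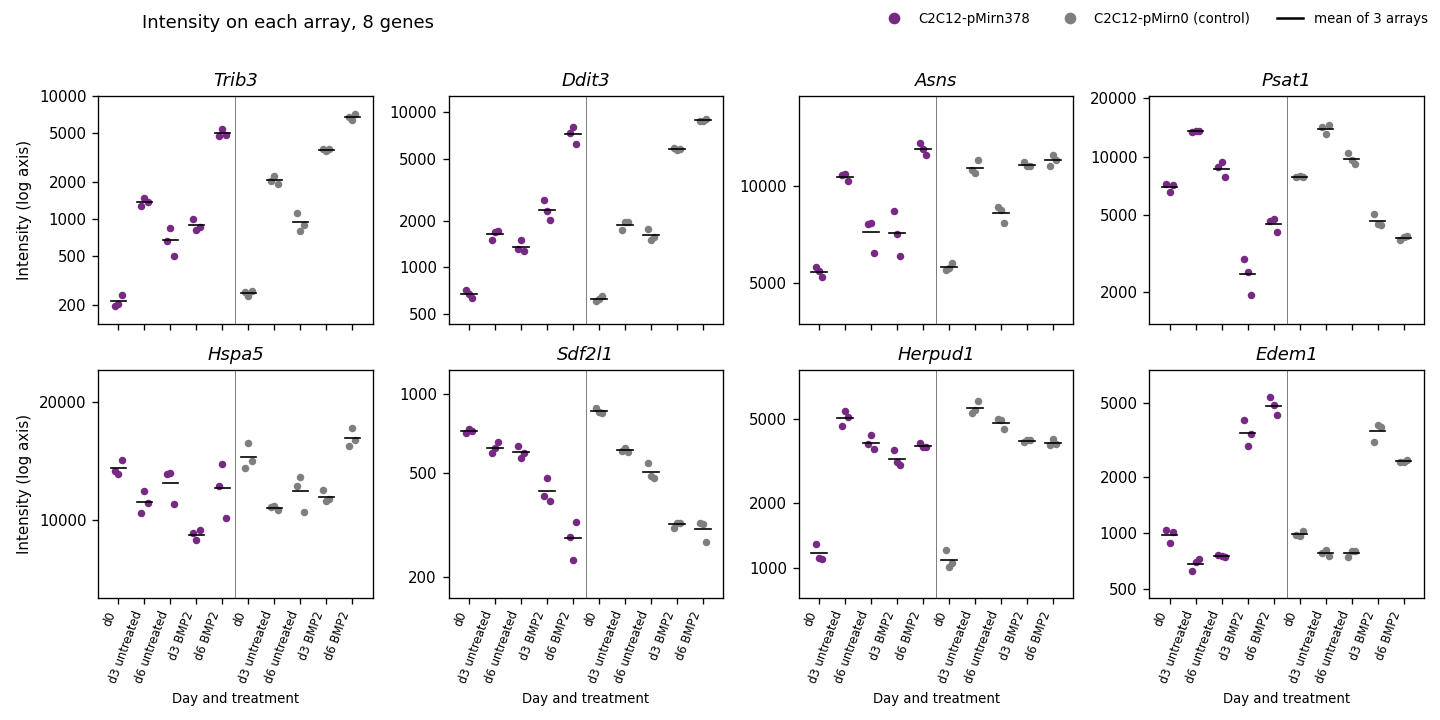
Intensity of 8 genes in each array (log axis, points are arrays, lines are means of 3), for the amino acid arm (Trib3, Ddit3, Asns and Psat1), the chaperones Hspa5 and Sdf2l1, and the ERAD genes Herpud1 and Edem1. In the BMP2 columns, Trib3 at d3 lies between 815 and 1005 in C2C12-pMirn378 and between 3558 and 3759 in C2C12-pMirn0. At d6 it lies between 4774 and 5461 in C2C12-pMirn378 and between 6419 and 7153 in C2C12-pMirn0.

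The effect of BMP2 was tested against untreated cells of the same line and day. At d6, 16 genes were higher and 3 lower in C2C12-pMirn378, where 10.8% and 11.1% of all genes were, and 16 were higher and 3 lower in C2C12-pMirn0, where 11.0% and 10.6% of all genes were. In each line 9 of the 11 regulators were called higher (all but Atf4 and Vldlr), with a median log2 ratio over the 11 of 1.67 in C2C12-pMirn378 and 1.49 in C2C12-pMirn0. All 11 had ratios above 0 in both lines, the lowest being 0.59 in C2C12-pMirn378 and 0.50 in C2C12-pMirn0. The arrays of Atf4 and of Vldlr with BMP2 also lay above those without it, with no overlap in either line. Of the chaperones none was called higher in C2C12-pMirn378 and 1 was in C2C12-pMirn0, Hyou1, a nucleotide exchange factor of Hspa5 (0.65, adjusted p = 5.5e-06). Without the first untreated d6 array of C2C12-pMirn0, Hyou1 was at 0.57 and no longer called. The chaperone median was −0.12 in C2C12-pMirn378 and −0.13 in C2C12-pMirn0.

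At d6, Sesn2 had 1370, 1222 and 1256 with BMP2 in C2C12-pMirn378, against 331, 338 and 382 without it (1.87, SE 0.15, adjusted p = 8.3e-10). Ddit4 had 4083, 4430 and 4108 with BMP2, against 1303, 1275 and 1136 without it, in the same line (1.77, SE 0.07, adjusted p = 7.3e-15). Aldh18a1, which opens the synthesis of proline, was higher with BMP2 by 1.24 in C2C12-pMirn378 and 1.21 in C2C12-pMirn0. Shmt2 was higher by 1.11 in C2C12-pMirn378 and 1.04 in C2C12-pMirn0, and Psph, the last step of serine synthesis, by 1.06 in C2C12-pMirn378 and 0.86 in C2C12-pMirn0. Asns was called in C2C12-pMirn378 (0.87) and not in C2C12-pMirn0 (0.55), and Mthfd2 in neither line (0.57 in C2C12-pMirn378 and 0.16 in C2C12-pMirn0).

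Psat1, the middle step of serine synthesis, fell with BMP2 on both days and in both lines, and at d6 the other 6 enzymes had ratios above 0. At d6 Psat1 had 4680, 4774 and 4098 with BMP2 in C2C12-pMirn378, against 8789, 9358 and 7820 without it, and 3710, 3861 and 3879 with BMP2 in C2C12-pMirn0, against 10394, 9618 and 9164 without it. The log2 ratio was −0.94 in C2C12-pMirn378 (SE 0.11, adjusted p = 3.0e-07) and −1.35 in C2C12-pMirn0 (SE 0.11, adjusted p = 9.2e-10). At d3 it was −2.47 in C2C12-pMirn378 and −1.58 in C2C12-pMirn0. Phgdh, the first step of the same pathway, was at 0.32 in C2C12-pMirn378 and 0.35 in C2C12-pMirn0 at d6 and was not called, so the 3 steps of serine synthesis did not share a call.

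At d3 the genes lower with BMP2 outnumbered those higher in C2C12-pMirn378 and did not in C2C12-pMirn0. In C2C12-pMirn378, 5 genes were higher and 9 lower, where 13.3% and 9.84% of all genes were. In C2C12-pMirn0, 8 were higher and 4 lower, where 11.2% and 8.48% of all genes were. The last split was 6 higher and 6 lower when the arrays were scaled to the median of the brighter probe sets and 6 and 4 after quantile normalization. Of the 7 enzymes, 5 were called lower in C2C12-pMirn378 (Psat1, Psph, Phgdh, Shmt2 and Mthfd2, median of the 7 log2 ratios −0.80) and 1 in C2C12-pMirn0 (Psat1, median −0.04). The regulators Ddit4 and Nupr1 rose in both lines, and Trib3 and Ddit3 rose in C2C12-pMirn0. In C2C12-pMirn378 Trib3 was lower with BMP2 (−0.62, SE 0.15, adjusted p = 0.0015), a call lost without the second or the third array of either of its d3 groups (down to −0.56, adjusted p up to 0.0113).

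At d3 Nupr1 had nearly the same response in both lines. It had 10714, 9540 and 9481 with BMP2 at d3 in C2C12-pMirn378, against 3513, 3572 and 3525 without it (1.48, SE 0.07, adjusted p = 9.0e-14), and its BMP2 ratio in C2C12-pMirn0 was 1.49 (SE 0.07, adjusted p = 1.1e-13). At d6 the ratio of Nupr1 was 2.18 in C2C12-pMirn378 and 1.68 in C2C12-pMirn0, and the difference passed the test but not the size threshold (0.51, SE 0.10, adjusted p = 0.0040).

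Among the ER sensing and ERAD genes, Edem1 rose most with BMP2. Edem1, a lectin that hands misfolded glycoproteins to ERAD, had 4064, 2933 and 3407 with BMP2 at d3 in C2C12-pMirn378, against 627, 697 and 724 without it (2.33, SE 0.10, adjusted p = 2.7e-14), and 3095, 3805 and 3735 with BMP2 in C2C12-pMirn0, against 781, 807 and 748 without it (2.18, SE 0.10, adjusted p = 1.1e-13). Xbp1 had 8456, 9283 and 9207 with BMP2 at d3 in C2C12-pMirn378, against 5040, 5005 and 4728 without it (0.87, SE 0.06, adjusted p = 1.9e-11), and 0.74 in C2C12-pMirn0. The other 3 probe sets of Xbp1 gave 0.37, 0.19 and 0.26 in C2C12-pMirn378 and were not called. The probe sets were not taken to tell spliced from unspliced Xbp1.

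Eif2ak3 rose with BMP2 at d3 in both lines (1.29 in C2C12-pMirn378 and 0.66 in C2C12-pMirn0, the second lost without the first untreated array). Ern1 passed the threshold at d3 in C2C12-pMirn0 (1.02) and not in C2C12-pMirn378 (0.51, interaction −0.50, adjusted p = 0.0034, short in size), and at d6 in both lines (1.67 in C2C12-pMirn378 and 1.59 in C2C12-pMirn0). Atf6 fell at d3 in both (−1.10 in C2C12-pMirn378 and −0.66 in C2C12-pMirn0). Wfs1 fell at d3 (−1.97 in C2C12-pMirn378 and −1.20 in C2C12-pMirn0) and at d6 (−0.94 in C2C12-pMirn378 and −0.78 in C2C12-pMirn0). The sensors thus did not share a direction. Wfs1 had 724, 693 and 710 with BMP2 at d3 in C2C12-pMirn378, against 2520, 2698 and 3154 without it, and no array overlapped. Herpud1 was lower with BMP2 at d3 in C2C12-pMirn378 (−0.64, adjusted p = 2.9e-06), but not without the second untreated or the third BMP2 array (−0.59 at the nearest to 0).

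Among the chaperones the clearest response to BMP2 was a fall of Sdf2l1. It had 284, 232 and 324 with BMP2 at d6 in C2C12-pMirn378, against 636, 571 and 596 without it (−1.11, SE 0.10, adjusted p = 3.7e-09), and 308, 320 and 322 with BMP2 at d3 in C2C12-pMirn0, against 606, 623 and 602 without it (−0.95, SE 0.10, adjusted p = 5.8e-08). In C2C12-pMirn378 at d3 the ratio was −0.56 and missed the threshold in size. Over all 13 chaperones the median at d3 was −0.08 in C2C12-pMirn378 and −0.15 in C2C12-pMirn0, and the first became 0.01 after quantile normalization, so no direction is given for it.

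Between the lines, 0 of the 40 genes were called at d0, at d3 untreated or at d6 untreated. Of all genes, 0.121% were higher and 0.709% lower in C2C12-pMirn378 at d0, 0.418% and 0.297% at d3 untreated, and 0.165% and 0.0824% at d6 untreated. By limma's unadjusted p under 0.05, 9, 8 and 12 of the 40 genes differed, with no share of all genes computed at that cut. Trib3, for instance, was at −0.23 at d0, −0.59 at d3 and −0.51 at d6 (SE 0.15 each, adjusted p of 0.048 or more). In untreated cells at d6, 17 of the 18 arm genes had a ratio below 0, with a median of −0.19, against 0.10 for the chaperones and 0.02 for all genes.

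With BMP2 at d3, 11 of the 40 genes were lower in C2C12-pMirn378 and 0 were higher, where 1.87% and 2.49% of all genes were. The amino acid arm held 10 of the 11 (Atf5, Ddit3, Trib3, Sesn2, Ppp1r15a, Asns, Psat1, Psph, Phgdh and Shmt2, 10 of 18 genes) and the other was Ern1. None of the 13 chaperones was called, and 7 had an unadjusted p under 0.05. All 11 calls were lost when the fit held only these 2 groups, which left 29 of the 40 genes at an unadjusted p under 0.05. The mean level of the 7 enzymes had an SD over 3 arrays of 0.17 in C2C12-pMirn378 and 0.03 in C2C12-pMirn0. The SEs of the main fit are pooled over all 10 groups and do not show this difference in spread. The median log2 ratio was −0.80 over the arm, 0.21 over the chaperones and −0.01 over all genes. In the arm, 17 of 18 genes had a ratio below 0 and Ddit4 was the exception, whereas 11 of 13 chaperones had a ratio above 0.

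Of the genes called, Trib3 had the widest gap, at −2.05 on the log2 scale (SE 0.15, adjusted p = 2.0e-09) from the arrays given above. Ddit3 was at −1.32 (SE 0.10, adjusted p = 9.7e-09), and its dimmer probe set at −0.61 was not called (adjusted p = 0.0085). Vldlr, at −1.82 and not called, is described further below. Ppp1r15a had 908, 807 and 801 in C2C12-pMirn378 and 1791, 1729 and 1914 in C2C12-pMirn0 (−1.11, SE 0.10, adjusted p = 4.5e-08). Atf5 had 4759, 3738 and 3152 in C2C12-pMirn378 and 7792, 6441 and 6730 in C2C12-pMirn0 (−0.86, SE 0.13, adjusted p = 4.4e-05). In none of these genes did an array of one line reach those of the other. Atf4 itself was at −0.24 (adjusted p = 0.069), and Sesn2, at −0.73 (adjusted p = 0.0019), lost its call without the first or second C2C12-pMirn0 array or without the second or the third C2C12-pMirn378 array (nearest to 0 at −0.56, adjusted p up to 0.0205). The other bright probe set of Sesn2 was at −0.59 (adjusted p = 0.044).

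The enzymes moved together here. Asns, which makes asparagine, had 8319, 7067 and 6048 in C2C12-pMirn378 and 11826, 11522 and 11542 in C2C12-pMirn0 (−0.71, SE 0.09, adjusted p = 9.3e-06). Phgdh had 6923, 5806 and 5475 in C2C12-pMirn378 and 12427, 11700 and 11284 in C2C12-pMirn0 (−0.97, SE 0.09, adjusted p = 7.9e-08). Psat1 had 2962, 2544 and 1927 in C2C12-pMirn378 and 5071, 4502 and 4433 in C2C12-pMirn0 (−0.93, SE 0.11, adjusted p = 2.5e-06). All 3 genes of serine synthesis were called, since Psph had 2797, 2386 and 2235 in C2C12-pMirn378 and 4713, 4488 and 4578 in C2C12-pMirn0 (−0.90, SE 0.09, adjusted p = 1.6e-07). Shmt2, the next step from serine, had 2165, 2095 and 1754 in C2C12-pMirn378 and 4002, 4008 and 3906 in C2C12-pMirn0 (−0.99, SE 0.08, adjusted p = 1.6e-08), while 2 of its 3 other probe sets, both much dimmer, were not called (−0.46 and −1.39). Mthfd2, the mitochondrial folate enzyme after it, was at −0.58 (adjusted p = 0.00019) and Aldh18a1 at −0.40, both short of the threshold in size.

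On the ER side, Ern1 had 1114, 1007 and 932 in C2C12-pMirn378 and 1567, 1538 and 1537 in C2C12-pMirn0 (−0.61, SE 0.07, adjusted p = 1.8e-06). The call was lost without the first C2C12-pMirn0 array (−0.60) or the third C2C12-pMirn378 array (−0.55), and another bright probe set of Ern1 gave −0.42 (adjusted p = 0.081). Hspa5 had 9253, 8888 and 9427 in C2C12-pMirn378 and 11898, 11192 and 11299 in C2C12-pMirn0 (−0.32, adjusted p = 0.041), and it was one of 2 chaperones with a ratio below 0. Creld2 (0.51), Calr (0.47), Sdf2l1 (0.42), Manf (0.33) and Pdia3 (0.32) lay on the other side without passing the size threshold. Ddit4, at 0.60 (adjusted p = 4.3e-06), was just under it and was called after rescaling (0.61) and after quantile normalization (0.62).

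Other cell states moved with this comparison. At d3 with BMP2, 9 cell cycle genes summed to 17855 to 18833 in C2C12-pMirn378 and 4803 to 5193 in C2C12-pMirn0, where d0 cells had 44347 to 45320 in C2C12-pMirn378 and 43319 to 44640 in C2C12-pMirn0. All 9 were at or above the overall median. The 10 myoblast and muscle markers summed to 14546 to 15970 in C2C12-pMirn378 and 21138 to 22372 in C2C12-pMirn0, but their members did not share a direction. Ckm was higher in C2C12-pMirn378 (195 ± 25.5 against 113 ± 8.45 in C2C12-pMirn0), and the means of Des and Tnnt1 were slightly higher. The other members were lower, among them the myoblast factor Myf5 (2778 ± 96.4 in C2C12-pMirn378 and 5377 ± 284 in C2C12-pMirn0). The sum of the bone markers given above was higher in C2C12-pMirn378. The 4 adipocyte markers summed to 1866 to 1974 in C2C12-pMirn378 and 2927 to 3298 in C2C12-pMirn0, most of it Fabp4 (1661 ± 93.6 in C2C12-pMirn378 and 2802 ± 231 in C2C12-pMirn0). Of the others, Pparg was at 255 ± 36.4 in C2C12-pMirn378 and 310.2 ± 54.1 in C2C12-pMirn0, and Adipoq and Cidec had means under 10 in both. The 5 macrophage markers summed to 1883 to 2102 in C2C12-pMirn378 and 954 to 1182 in C2C12-pMirn0, most of it Csf1r (915 ± 79.6 in C2C12-pMirn378 and 335 ± 34.5 in C2C12-pMirn0) and Cd14 (926 ± 46.6 in C2C12-pMirn378 and 609 ± 74.2 in C2C12-pMirn0), with Cd68 (42.5 in C2C12-pMirn378 and 53.8 in C2C12-pMirn0) and Ptprc (10.9 in C2C12-pMirn378 and 6.46 in C2C12-pMirn0) under the overall median. The remaining macrophage marker, Adgre1, was at 87.3 ± 9.55 in C2C12-pMirn378 and 89.0 ± 15.7 in C2C12-pMirn0. The 5 endothelial markers summed to between 60.6 and 200.2 over all 30 arrays. At d3 untreated the cell cycle genes also lay apart, at 5332 to 6939 in C2C12-pMirn378 and 3023 to 3331 in C2C12-pMirn0. At d6 with BMP2 the bone, muscle and macrophage sums and Fabp4 still lay apart, with values given further below. The part of these marker differences in the stress genes was not tested.

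At d6 with BMP2 1 of the 40 genes was higher in C2C12-pMirn378 and 0 were lower, where 1.54% and 1.32% of all genes were, and none was in the arm. By limma's unadjusted p under 0.05, 16 of the 40 differed. The arm's median was 0.05, with Trib3 at −0.44 (adjusted p = 0.073), Ddit3 at −0.30 (adjusted p = 0.091) and the 7 enzymes between −0.18 and 0.24. The called gene was Edem1, with 5361, 4857 and 4293 in C2C12-pMirn378 and 2406, 2423 and 2457 in C2C12-pMirn0 (0.99, SE 0.10, adjusted p = 1.1e-06), a call lost in the fit on these groups alone. Its other probe set, which is also bright, gave 0.24 (adjusted p = 0.11), although both were called higher with BMP2 in C2C12-pMirn378 at d6 (2.68 for the brighter and 1.06 for the other). Both probe sets thus read the BMP2 response, and 1 of them the gap between the lines.

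**Figure D4:**
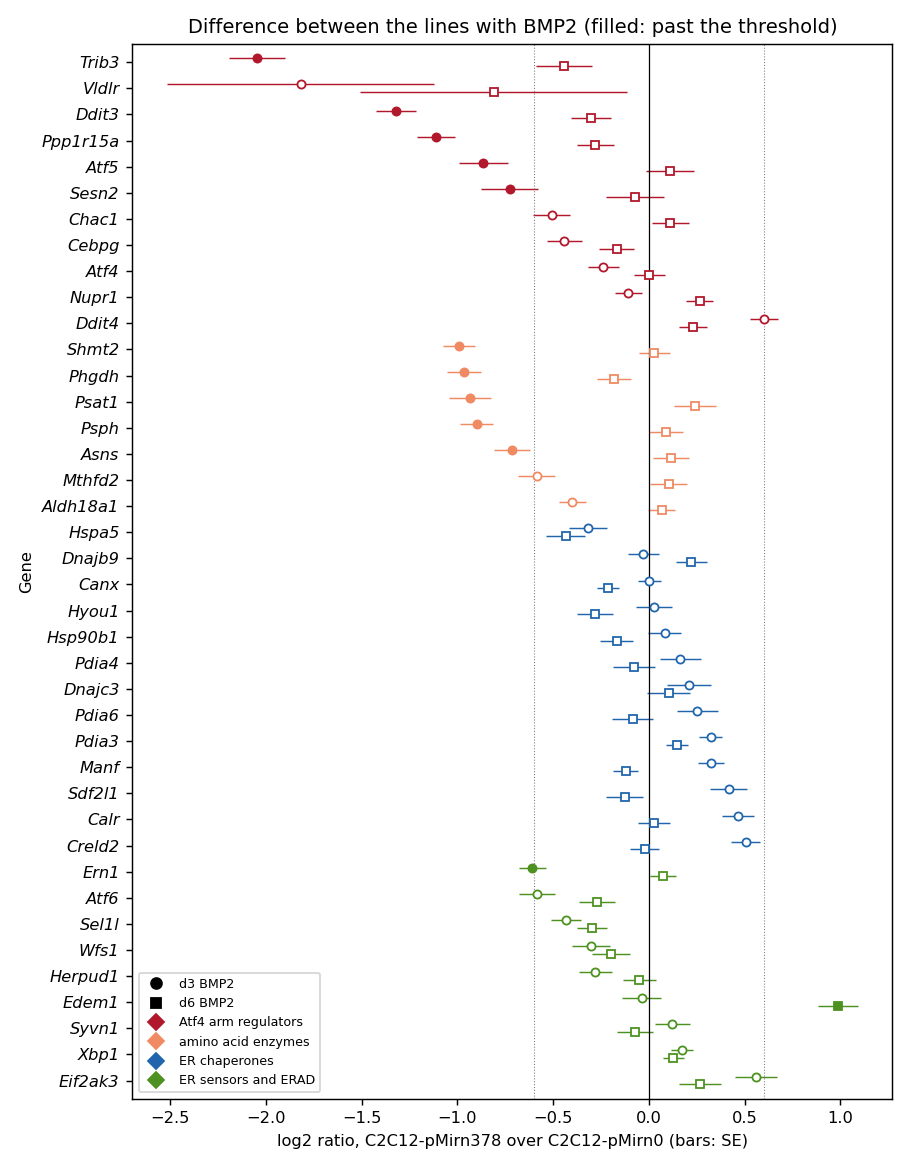
Log2 ratio of C2C12-pMirn378 over C2C12-pMirn0 with BMP2 for each of the 40 genes, at d3 (circles) and d6 (squares), with bars of 1 SE. Filled symbols passed the threshold and dotted lines mark ±0.6; 11 genes lie filled on the left at d3, 10 of them in the amino acid arm, and Edem1 is the only filled gene at d6.

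Vldlr separated the lines in a way the threshold did not register. After d0 its arrays did not overlap in any of the 4 comparisons. It was at 113 to 124 in C2C12-pMirn378 and 313 to 404 in C2C12-pMirn0 at d3 untreated, and at 176 to 209 in C2C12-pMirn378 and 619 to 685 in C2C12-pMirn0 at d3 with BMP2. At d6 it was at 224 to 265 in C2C12-pMirn378 and 365 to 415 in C2C12-pMirn0 untreated, and at 477 to 527 in C2C12-pMirn378 and 800 to 946 in C2C12-pMirn0 with BMP2. The log2 ratio was −1.57 at d3 untreated, −1.82 at d3 with BMP2, −0.68 at d6 untreated and −0.81 at d6 with BMP2, each with an SE of 0.70, and none was called. With all values under 50 set to 50, which removes the scatter at d0, all 4 were called (adjusted p between 6.0e-12 and 6.4e-05).

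Whether the line gap at d3 with BMP2 was larger than that without it was tested as an interaction. At d3, 0 of the 40 genes had a higher and 7 a lower BMP2 response in C2C12-pMirn378, where 1.15% and 0.874% of all genes did. These were Ddit3 (−1.12), Trib3 (−1.45), Psat1 (−0.89), Psph (−0.76), Phgdh (−0.90), Shmt2 (−0.86) and Wfs1 (−0.77). By unadjusted p under 0.05 with limma 24 of the 40 genes differed. The arm's median was −0.58 and that of the chaperones 0.23. The call of Wfs1 was lost without 5 of the 12 arrays, the third untreated array of each line, the first C2C12-pMirn0 BMP2 array or the second or the third C2C12-pMirn378 BMP2 array (nearest to 0 at −0.68), and that of Psat1 without the first C2C12-pMirn0 BMP2 array (−0.72, adjusted p = 0.0052). At d6 only Edem1 had a different response (1.05, adjusted p = 0.00012, with 1.03% of all genes higher and 1.02% lower), and its other probe set gave 0.08. Fitted on the compared groups alone, 1 gene was called at d3 and 0 at d6.

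The closing of the gap between d3 and d6 was seen in each line's own values. In C2C12-pMirn378 with BMP2, 14 of the 40 genes were higher at d6 than at d3 and 1 was lower, where 3.01% and 4.89% of all genes were, and 11 of the 14 were in the arm (median of the arm 0.91, of the chaperones −0.12). In C2C12-pMirn0 with BMP2, 5 were higher and 0 lower, where 0.956% and 2.67% of all genes were, and 4 of the 5 were in the arm (median of the arm 0.12, of the chaperones 0.14). Trib3 was higher at d6 by 2.49 in C2C12-pMirn378 and 0.89 in C2C12-pMirn0 (SE 0.15 each, adjusted p at most 0.00022). Asns reached 13523, 13036 and 12492 at d6 in C2C12-pMirn378, against the d3 values above (0.88, adjusted p = 2.6e-07), and 11521, 12439 and 12046 in C2C12-pMirn0, where its d3 values already lay (0.04, adjusted p = 0.87). In C2C12-pMirn378 the fall of Sdf2l1 (−0.61) was lost without the second array of either day (nearest to 0 at −0.48) and under either rescaling (−0.57 and −0.55), and Atf6 (0.70) was lost without the third d3 array (0.57). In C2C12-pMirn0 Ddit3 (0.61) was lost without the third d6 array (0.59).

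The difference itself, the line gap at d6 minus that at d3 with BMP2, was above 0 and called for 12 of the 40 genes and below 0 for 0, where 0.764% and 1.25% of all genes were. Of these 12 genes 10 were in the arm: Trib3 (1.60), Psat1 (1.17), Shmt2 (1.02), Ddit3 (1.02), Psph (0.99), Atf5 (0.97), Ppp1r15a (0.83), Asns (0.83), Phgdh (0.79) and Mthfd2 (0.69). The other genes were Ern1 (0.68) and Edem1 (1.03). With only the 4 groups compared in the fit, 2 of the 12 were called. None of the 13 chaperones was called, 8 had an unadjusted p under 0.05 with limma, and their median was −0.25, against 0.81 for the arm. Mthfd2 was not called when any 1 of 11 of the 12 arrays was left out, the first C2C12-pMirn378 d3 array being the one it did not need (adjusted p up to 0.0163), and Atf5 was lost without any of 6 arrays: the first C2C12-pMirn0 d3 array, the first or second C2C12-pMirn0 d6 array, the second or the third C2C12-pMirn378 d3 array or the first C2C12-pMirn378 d6 array (adjusted p up to 0.0081). As the d3 gap had been seen before this comparison was set up, it describes the closing of the gap and is not separate support for the gap.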

How the data were processed

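RNA from C2C12-pMirn378 and C2C12-pMirn0 cells was hybridised to 1-colour expression arrays, 30 in all with 3 in each of 10 groups. The deposited values are intensities on a linear scale, which the authors describe as quantile normalised by RMA in R 2.4.1. The array medians still ranged from 68.0 to 82.7 and 5512 values were under 1, so the exact normalization of the deposited values is not known. No detection calls were used. The number of arrays also limits the precision. Of 45101 probe sets, 34958 carried 1 gene symbol in the platform annotation, 932 several and 9211 none, and only the first kind was used. The log2 intensities were fitted with limma 3.58.1 (R 4.3.3) as 10 group means over all 30 arrays, with Benjamini-Hochberg adjustment over all probe sets (20 residual degrees of freedom) and 1 probe set per gene reported. Replicates had a median SD of 0.13 (log2) in brighter probe sets and 0.71 in dim ones. The fit was tested on simulated data. Any of the 40 genes could be named. Values from every array go to called genes, at most the 6 with the largest ratio per gene group and comparison, and to called genes that ran against their group, and Hspa5 and Vldlr were added after their values were seen. Further lists (cell type markers, tRNA synthetases, other Atf4 program genes and other ER folding and export genes) were described by counts. The members and lists were chosen with earlier results of these data known. The comparisons of d6 with d3, and of the line gap at both days, were chosen after the values were seen. Alternatives were an offset of 16, a floor of 50, rescaling, quantile normalization, a filter on dim probe sets, array weights, a trended robust fit, a fit on the compared groups alone, a replicate block, and leaving out each array. Promoter sequences are from RefSeq (GRCm38.p6).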

Additional observations from a re-analysis of the deposited data

Results flagged for a closer look

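A closer look is warranted where the effect of BMP2, or the gap between the lines, itself differed between lines or days by limma's test of that difference. At d3 the BMP2 response of C2C12-pMirn378 minus that of C2C12-pMirn0 was −1.45 for Trib3, −1.12 for Ddit3, −0.90 for Phgdh, −0.89 for Psat1, −0.86 for Shmt2, −0.77 for Wfs1 and −0.76 for Psph on the log2 scale (adjusted p between 6.8e-05 and 0.0020). At d6 it was 1.05 for Edem1 (adjusted p = 0.00012), whose other bright probe set gave 0.08. The dimmer probe set of Ddit3 gave −0.67 at d3 (adjusted p = 0.089).

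With BMP2, the line gap at d6 minus that at d3 was 1.60 for Trib3, 1.17 for Psat1, 1.03 for Edem1, 1.02 for Ddit3, 1.02 for Shmt2, 0.99 for Psph, 0.97 for Atf5, 0.83 for Ppp1r15a, 0.83 for Asns, 0.79 for Phgdh, 0.69 for Mthfd2 and 0.68 for Ern1 (adjusted p between 5.8e-06 and 0.0040). The other probe set gave 0.02 for Edem1 and 0.48 for Ddit3 (adjusted p = 0.33). The summed cell cycle, muscle, bone and macrophage markers and the adipocyte marker Fabp4 also lay apart at d3 with BMP2 in C2C12-pMirn378 and C2C12-pMirn0. At d6 with BMP2 the sums in C2C12-pMirn378 and C2C12-pMirn0 were 11603 to 14211 and 6035 to 6472 for bone, and 10233 to 11332 and 16414 to 17034 for muscle. They were 1229 to 1386 and 698 to 770 for macrophage markers, and 2328 to 2640 and 2873 to 2899 for the cell cycle. Fabp4 was then at 2623 ± 73.0 in C2C12-pMirn378 and 4095 ± 109 in C2C12-pMirn0. The part of these markers was not tested.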

How the results depend on the processing

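Of the 207 calls of a gene in a comparison, all were kept with array weights, a trended robust fit, the filter on dim probe sets and a floor of 50, and 1 was lost with an offset of 16, 7 with quantile normalization and 9 with rescaling. No call changed sign. Fitting only the groups compared lost 77. Such a fit has fewer degrees of freedom and takes the spread from those groups alone, and the part of each was not tested. The genes called were then 0 for the lines at d3 with BMP2 (29 of 40 at unadjusted p under 0.05), 0 at d6 with BMP2 (11), 9 for BMP2 in C2C12-pMirn378 at d3, 1 for the d3 interaction (24), 0 for the d6 interaction (13), and for d6 over d3 0 in untreated C2C12-pMirn378 (22), 9 with BMP2, 1 in untreated C2C12-pMirn0 and 3 with BMP2, and 2 for the change of the line gap. With the floor of 50, Vldlr was called, giving 1 gene for the lines at d3 untreated, 1 at d6 untreated and 2 at d6 with BMP2. Rescaling moved the median of all genes for BMP2 in C2C12-pMirn0 at d3 from 0.06 to −0.05, the only shift over 0.1. After quantile normalization the enzyme median there was 0.04 and, for d6 over d3 in C2C12-pMirn0 with BMP2, −0.05.

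Leaving out each array kept 183 of the 207 calls. The counts ranged from 9 to 15 for the lines at d3 with BMP2, 5 to 10 for the d3 interaction, 12 to 15 for BMP2 in C2C12-pMirn378 and 10 to 13 in C2C12-pMirn0 at d3, 20 to 23 in C2C12-pMirn378 and 18 to 19 in C2C12-pMirn0 at d6, 5 to 10 for d6 over d3 in untreated C2C12-pMirn378, 14 to 16 with BMP2, 8 to 9 in untreated C2C12-pMirn0 and 4 to 6 with BMP2, and 10 to 12 for the change of the line gap. Differentiation counts were 19 to 21 with BMP2 and 12 to 14 untreated in C2C12-pMirn378, and 23 to 24 with BMP2 and 16 to 18 untreated in C2C12-pMirn0. Calls lost and not named above were Asns in untreated C2C12-pMirn378 differentiation (without d0 array 3 or d6 array 1 or 2, adjusted p up to 0.0114), Psph in untreated C2C12-pMirn0 differentiation (any d0 array, or d6 array 1 or 3, up to 0.0198), Sel1l with BMP2 (0.60 without C2C12-pMirn378 d3 array 1, and 0.59 for BMP2 in C2C12-pMirn0 at d6 without untreated array 2), Manf (−0.59 without C2C12-pMirn0 d0 array 1), Ddit4 for BMP2 in C2C12-pMirn0 at d3 (0.60 without untreated array 1 or 2) and Ppp1r15a for d6 over d3 in untreated C2C12-pMirn0 (−0.55 without d6 array 3).

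Replicate numbers did not pair the arrays: in 1 of 45 pairs of groups were all 3 same-number correlations over 0.1, with a median of 0.04. With a replicate block, all 207 calls were kept and the d3 interaction had 8 genes rather than 7. No other count changed.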

Other observations

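Genes next to these pathways were counted in the same comparisons. Of all genes, 2.49% were higher and 1.87% lower in C2C12-pMirn378 at d3 with BMP2, and 1.54% and 1.32% at d6 with BMP2. Of 19 tRNA synthetases, which load amino acids onto tRNA, 3 were called between the lines at d3 with BMP2, all lower in C2C12-pMirn378 (Wars −1.09, Lars −0.75 and Sars −0.71), with a median of −0.39, and 0 were called at d6 with BMP2. Of 19 further genes of the Atf4 program, 6 were lower at d3 with BMP2, among them Cth, which makes cysteine (−2.04), Gpt2, a mitochondrial alanine transaminase (−0.89), and Ndrg1 (−0.81), and 1 was higher. That gene was Stc2, a secreted glycoprotein, at 1079 ± 245 in C2C12-pMirn378 and 266 ± 20.7 in C2C12-pMirn0 (SD, n = 3, log2 ratio 1.99), and it was also called higher at d6 with BMP2, with 412 ± 60.6 in C2C12-pMirn378 and 156 ± 16.7 in C2C12-pMirn0.

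Of 30 further ER folding and export genes, 15 were higher and 0 lower with BMP2 at d3 in C2C12-pMirn378, where 13.3% and 9.84% of all genes were, and 10 were higher and 2 lower in C2C12-pMirn0, where 11.2% and 8.48% of all genes were. At d6 the counts were 8 and 1 in C2C12-pMirn378, where 10.8% and 11.1% of all genes were, and 9 and 2 in C2C12-pMirn0, where 11.0% and 10.6% were. Between the lines at d3 with BMP2, Creb3l1, a membrane-bound transcription factor of secretory cells (0.82), and Pdia5 (0.67) were higher and Ero1a, the oxidase that recharges protein disulfide isomerase, was lower at 1162 ± 112 in C2C12-pMirn378 and 2991 ± 83.6 in C2C12-pMirn0 (−1.37).

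Of the 60 other probe sets of the 40 genes, 48 were bright. Over the 207 calls they gave 211 readings, of which 208 had the same sign, 137 were called the same way and 0 the other way.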
